A study of Mus musculus with 16 samples.

Results

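Cytochrome P450s (P450s) are heme enzymes of the endoplasmic reticulum, or in a few cases of mitochondria, and the genes described here are those of liver that lie outside the Cyp2c family. The list held 33 genes, 32 P450s and Por, the reductase that passes electrons to microsomal P450s. Every probe set that the platform annotation gave to exactly 1 of these genes was taken, 40 of 45101 probe sets on the array, and 30 P450 genes had at least 1. Of these 30, 29 passed the filter on dim genes and were tested among 13395 genes. Cyp2b13, a relative of Cyp2b10, had signals of 0.819 to 23.0 and did not pass. The probe sets of Cyp2a5 and Cyp4a10 carried several gene symbols and Por had no probe set assigned to it alone, so no expression value is given for these 3.

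RNA came from mouse livers perfused with a buffer holding 0.1 mM CaCl2. The knockout mice lacked Perk in liver (Alb/Cre Perk-/-). Perk, listed under Eif2ak3, is a stress kinase in the membrane of the endoplasmic reticulum that slows translation through eIF2 alpha. It was deleted with an albumin-driven Cre that acts in hepatocytes and need not remove the gene from every other liver cell. The wild-type mice were their littermates, and all were 3 to 6 months old. Livers of each genotype were perfused with tBuHQ, a di-tert-butylhydroquinone that blocks calcium uptake into the endoplasmic reticulum and for which the labels name different isomers, or without it (untreated). Polysome RNA, that of mRNAs loaded with several ribosomes, came from fractions of a sucrose gradient of 20 to 47%, and unfractionated RNA from the detergent-containing supernatant. The 8 groups were thus knockout tBuHQ, knockout untreated, wild-type tBuHQ and wild-type untreated, each as polysome and as unfractionated RNA, with 2 arrays per group and RNA of 2 livers pooled on each array.

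P450s insert an oxygen atom into their substrates, using electrons that Por passes from NADPH. In liver, families 1 to 3 mostly clear drugs and other foreign compounds, family 4 mostly hydroxylates fatty acids, and families 7, 8 and 27 make bile acids from cholesterol. Most of these enzymes are made by ribosomes on the endoplasmic reticulum, and transcription of their genes depends on nuclear receptors and on clock factors such as Dbp.

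All arrays had been scaled by the authors to a trimmed mean signal of 150, so a difference between arrays is relative to the bulk of the probe sets on each and says nothing of total RNA. Correlations between the 2 arrays of a group ran from 0.942 to 0.979. The Perk probe set had signals of 26.3 to 49.2 on the 8 knockout arrays and 46.1 to 216 on the 8 wild-type arrays, a log2 difference of -1.31 ± 0.17 (SE, limma adjusted p = 0.00949). The labelled tissue held with its markers, since 5 hepatocyte markers summed to signals of 49368 to 90848 on every array. The Gapdh 3' to 5' signal ratio, which is high in degraded RNA, reached 5.60 for the second polysome array of wild-type tBuHQ liver and lay at 0.735 to 0.859 for all 15 others. Both untreated wild-type unfractionated arrays and the first knockout tBuHQ unfractionated array resembled one another (r of 0.977 to 0.979) more than the other 5 unfractionated arrays (0.942 to 0.966). The 75th percentile of signal was 105 to 114 on these 3 and 83.7 to 88.9 on the other 5. On the polysome arrays it was 95.9 to 108. Markers of pancreas, 5 genes summed, were at 1387 to 1936 on the first wild-type tBuHQ and first untreated knockout arrays of both fractions, and at 50.5 to 157 on the other 12. Calls are also given below without the 4 arrays set apart by Gapdh or by correlation, and medians of the tBuHQ differences where leaving out 1 array moves them by over 1.5 times. Leaving out these 4 arrays also drops untreated wild-type liver from the average between fractions. It likewise drops untreated unfractionated RNA from the average between genotypes.

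Promoter sequence was taken from RefSeq (GRCm38.p6) as the 250 bases before the start of each gene, and 25 listed genes had a window. Letters were searched on both strands. TATAAA, the letters of the TATA box, was in 10 of the 25 windows (40%), against 12.4% of 32851 windows of all genes. AGGTCA, the core that many nuclear receptors bind, was in 6 of 25 (24%), against 14% of all windows. TGATGCAA, a letter string bound by C/EBP and ATF factors, was in 1 of 25, that of Cyp3a11, against 0.791% of all windows. The D-box TTATGTAA, the HNF1 site, the DR1 repeat of AGGTCA and the endoplasmic reticulum stress element (ERSE), the last 3 given by name, were in none of the 25 windows, against 0.819%, 0.00913%, 0.0335% and 0.113% of all windows. A match is a description of letters and not of a bound site.

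The 50 bases before the start are printed for 4 genes that carry TATAAA there on their own strand, in capitals, because Cyp1a2, Cyp2a12, Cyp2e1 and Cyp8b1 are followed through the results. Cyp1a2 lies on the minus strand (chr9:57683656-57683705), Cyp2a12 on the plus strand (chr7:27029040-27029089), Cyp2e1 on the plus strand (chr7:140763769-140763818) and Cyp8b1 on the minus strand (chr9:121916306-121916355).
Cyp1a2: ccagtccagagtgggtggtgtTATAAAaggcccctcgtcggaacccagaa
Cyp2a12: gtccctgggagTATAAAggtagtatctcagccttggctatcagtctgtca
Cyp2e1: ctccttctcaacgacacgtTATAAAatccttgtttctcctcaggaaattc
Cyp8b1: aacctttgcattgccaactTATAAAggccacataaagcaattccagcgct
In these 4 the first base of TATAAA lay 29, 39, 31 and 31 bases before the start.

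The whole window is shown for Cyp3a25 and Cyp3a11, neighbours on chromosome 5 whose polysome values are given below and which both carry AGGTCA. Both lie on the minus strand, Cyp3a25 at chr5:146009619-146009868 and Cyp3a11 at chr5:145879855-145880104. Capitals mark AGGTCA or its reverse complement TGACCT, and in Cyp3a11 also TATAAA and TGATGCAA.
Cyp3a25: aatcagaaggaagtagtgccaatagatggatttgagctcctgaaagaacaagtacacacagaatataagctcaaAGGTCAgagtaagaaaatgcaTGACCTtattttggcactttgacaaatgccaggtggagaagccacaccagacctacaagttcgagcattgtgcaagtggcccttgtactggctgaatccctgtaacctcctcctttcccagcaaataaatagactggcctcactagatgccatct
Cyp3a11: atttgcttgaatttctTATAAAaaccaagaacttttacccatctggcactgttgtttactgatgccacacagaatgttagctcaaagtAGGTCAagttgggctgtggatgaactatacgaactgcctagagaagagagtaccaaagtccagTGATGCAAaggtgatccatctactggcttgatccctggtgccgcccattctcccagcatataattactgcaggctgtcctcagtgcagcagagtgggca
Cyp3a25 has 2 copies of the core in opposite directions and Cyp3a11 has 1.

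Cyp4v3 and Cyp4f14 are the 2 genes that passed a test on genotype below, and their windows hold none of the 7 strings searched. Both are on the minus strand, Cyp4v3 at chr8:45333164-45333413 and Cyp4f14 at chr17:32917357-32917606.
Cyp4v3: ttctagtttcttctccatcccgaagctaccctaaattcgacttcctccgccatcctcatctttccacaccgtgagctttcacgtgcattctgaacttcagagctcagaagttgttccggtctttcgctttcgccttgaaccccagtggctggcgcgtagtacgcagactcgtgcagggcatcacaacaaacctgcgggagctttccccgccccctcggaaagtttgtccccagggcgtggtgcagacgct
Cyp4f14: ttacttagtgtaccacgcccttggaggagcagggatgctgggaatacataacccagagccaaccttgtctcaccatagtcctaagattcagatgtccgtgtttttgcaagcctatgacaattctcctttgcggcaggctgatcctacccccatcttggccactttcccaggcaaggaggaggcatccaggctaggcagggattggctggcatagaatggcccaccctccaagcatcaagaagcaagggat

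P450 mRNAs were lower in polysome than in unfractionated RNA. Averaged over the 4 combinations of genotype and treatment, 19 of 29 tested P450 genes were lower on polysomes at an adjusted p under 0.05 (a called gene) and 0 were higher, where 10.6% of all genes tested were called lower and 13.2% higher. Log2 differences, polysome minus unfractionated, ran from -0.81 to 0.06 with a median of -0.49, against a median of -0.03 over all genes, and 26 of 29 were below 0. These differences describe the relative share of each mRNA in the polysome fraction. Where livers are compared below, fewer cells of a type and less RNA per cell cannot be told apart in bulk RNA. The difference was below 0 in all 4 combinations for 20 of 29 P450 genes, where 18.3% of all genes were. No P450 gene had all 8 polysome arrays below all 8 unfractionated arrays, which 1.32% of all genes did, and none had them all above, which 2.02% did.

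**Figure D1:**
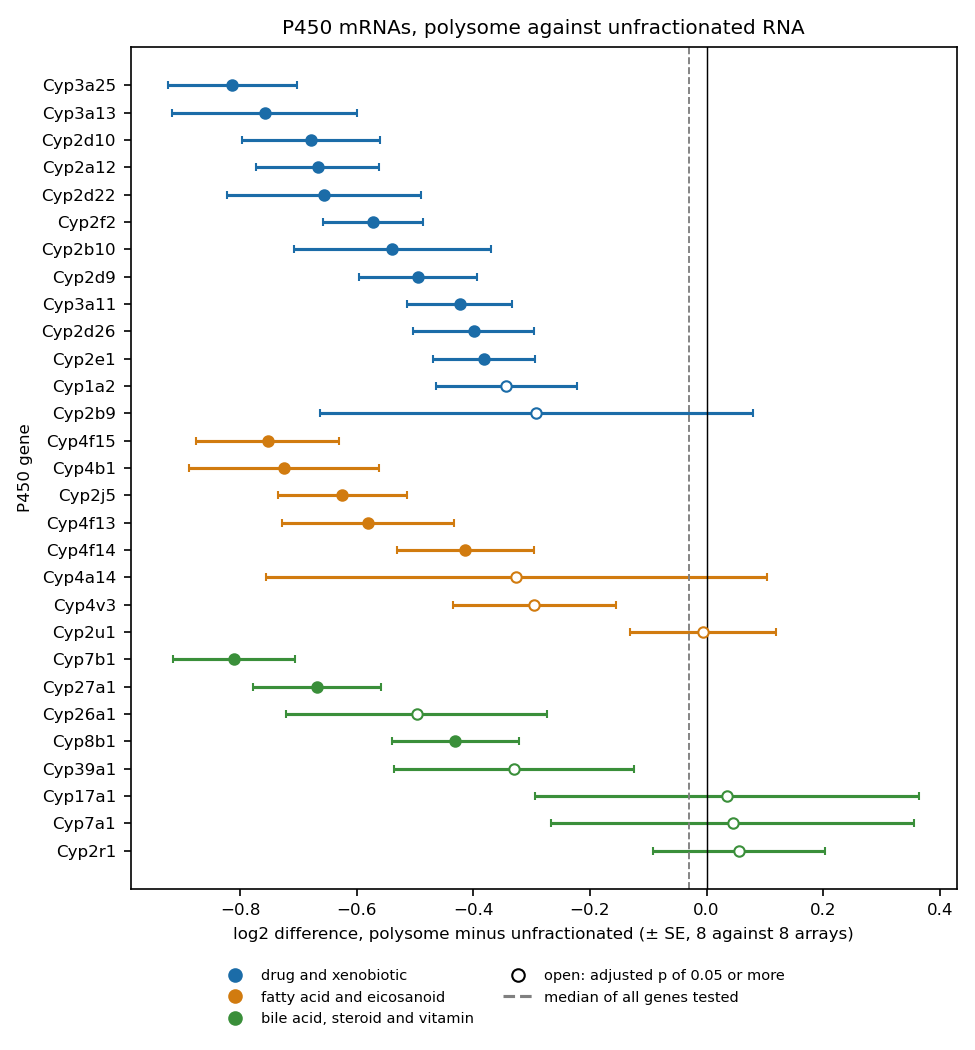
Log2 difference of each of 29 P450 genes, polysome minus unfractionated RNA (x axis, ± SE, 8 arrays against 8), by gene (y axis) and coloured by role. Filled points passed an adjusted p of 0.05; the 19 filled points all lie left of 0, and the dashed line is the median of all genes (-0.03).

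The P450 genes were also read by level, since 16 of the 29 had a mean signal of at least 1000. Of 1643 genes with a mean signal of at least 1000, 27.6% were called lower and the median was -0.15, and of the 16 P450 genes among them 14 were called lower with a median of -0.53. Among the 13 P450 genes under 1000, 5 were called lower and the median was -0.33.

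**Figure D2:**
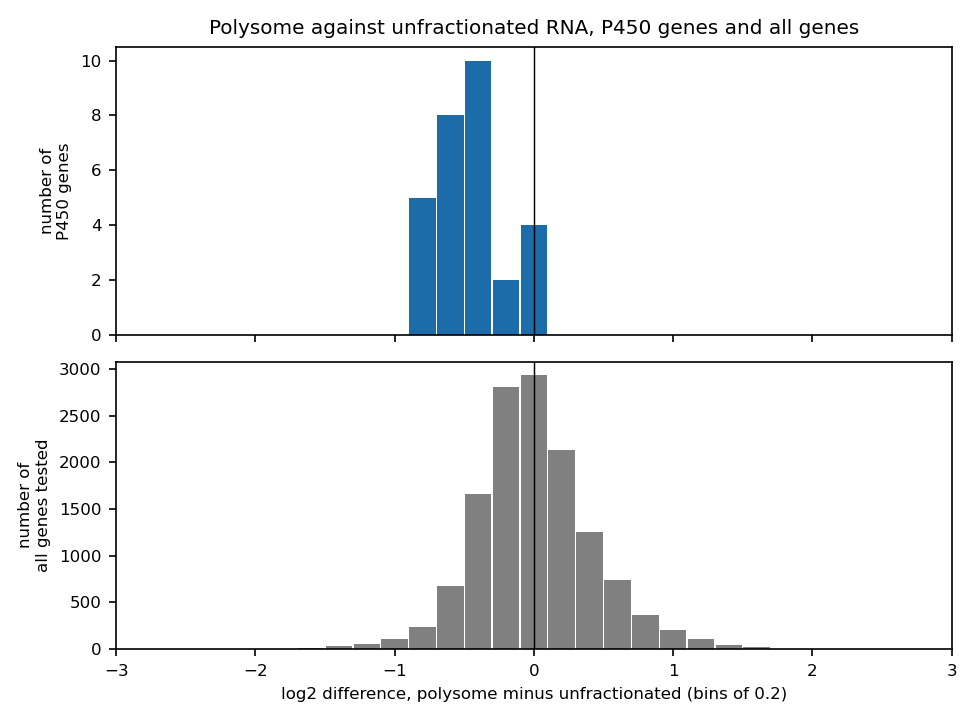
Number of genes (y axes) by log2 difference, polysome minus unfractionated RNA (x axis, bins of 0.2), for 29 P450 genes (upper panel) and all 13395 genes tested (lower panel; the x axis ends at -3 and 3). The P450 genes sit between -0.81 and 0.06, whereas all genes centre on -0.03.

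The drug and xenobiotic group had 11 of 13 tested genes called lower, with a median of -0.54. Cyp2e1, which oxidises ethanol and small solvents, had polysome signals of 11882 and 15244 in knockout tBuHQ, 12020.4 and 12788 in knockout untreated, 14432 and 11640.4 in wild-type tBuHQ and 11104 and 12068 in wild-type untreated liver. In unfractionated RNA it had 15916 and 17151 in knockout tBuHQ, 15716 and 14848 in knockout untreated, 20045 and 19054 in wild-type tBuHQ and 14208 and 15113 in wild-type untreated liver. Within each of the 4 combinations both polysome arrays of Cyp2e1 lay below both unfractionated arrays. The log2 difference was -0.38 ± 0.09 (SE, limma adjusted p = 0.00471).

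Cyp3a11, a drug hydroxylase under the nuclear receptors PXR and CAR, had polysome signals of 10186 and 13175 in knockout tBuHQ, 8272 and 10382 in knockout untreated, 13171 and 11547 in wild-type tBuHQ and 10162 and 9792 in wild-type untreated liver. Its unfractionated signals were 14960.2 and 15277 in knockout tBuHQ, 11828 and 13120.2 in knockout untreated, 15979.5 and 17367 in wild-type tBuHQ and 13650.4 and 13638 in wild-type untreated liver. Every polysome array of Cyp3a11 was below every unfractionated array of the same genotype and treatment, and the log2 difference was -0.42 ± 0.09 (adjusted p = 0.00293). Cyp3a25 (promoter above) fell by 0.81 ± 0.11 and Cyp3a13 by 0.76 ± 0.16 on the log2 scale, both also of the Cyp3a family of drug hydroxylases (adjusted p = 9.56e-05 and 0.00272). These 2 genes were picked out after their values were seen, as were Cyp4v3 and Cyp7b1 and all genes named below without values on every array.

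Cyp2f2, a naphthalene oxidase best known from lung, had polysome signals of 7179.9 and 8207 in knockout tBuHQ, 5339.9 and 5876 in knockout untreated, 9812 and 9225 in wild-type tBuHQ and 6817 and 7613 in wild-type untreated liver. In unfractionated RNA they were 12025 and 10910.4 in knockout tBuHQ, 8592 and 9012 in knockout untreated, 11936 and 13555 in wild-type tBuHQ and 10622 and 11993 in wild-type untreated liver. The 2 fractions did not overlap within any of the 4 combinations, and the log2 difference was -0.57 ± 0.09 (adjusted p = 0.000216). The 4 Cyp2d genes, which lie together on chromosome 15 and oxidise many basic drugs in other mammals, were all called lower, with log2 differences of -0.68 to -0.40. Without the 4 arrays that stood apart only Cyp2d10 of these 4 kept its call. Cyp2a12, a steroid hydroxylase, fell by 0.67 ± 0.11 (adjusted p = 0.00033).

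Cyp2b10, the classic target of the receptor CAR, was dimmer. On polysomes it had 80.6 and 109 in knockout tBuHQ, 106 and 74.1 in knockout untreated, 197 and 117 in wild-type tBuHQ and 116 and 109 in wild-type untreated liver. In unfractionated RNA it had 106 and 113 in knockout tBuHQ, 222 and 97.5 in knockout untreated, 188 and 199.6 in wild-type tBuHQ and 196 and 296 in wild-type untreated liver. The fractions overlapped in wild-type tBuHQ and both knockout combinations and stood apart in untreated wild-type liver, and the log2 difference was -0.54 ± 0.17 (adjusted p = 0.0303). The call was lost in 11 of 27 other settings. With every probe set tested, its other probe sets past the filter gave -1.01 ± 0.23 (limma adjusted p = 0.00604) and -0.59 ± 0.22 (adjusted p = 0.0708, not called). Cyp1a2, which metabolises caffeine and aromatic amines, had polysome signals of 8093 and 10896 in knockout tBuHQ, 4731 and 6242 in knockout untreated, 11935 and 6703 in wild-type tBuHQ and 7502 and 7095 in wild-type untreated liver. Its unfractionated signals were 11199.8 and 10472 in knockout tBuHQ, 6954 and 6789 in knockout untreated, 11744 and 11721 in wild-type tBuHQ and 9533 and 10284 in wild-type untreated liver. The fractions overlapped for knockout and wild-type tBuHQ livers, and the difference of -0.34 ± 0.12 was not called (adjusted p = 0.0504). The other drug P450 not called was Cyp2b9, at -0.29 ± 0.37, with signals of 4.97 to 105 where RNAs absent from the samples read up to 15.1.

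**Figure D3:**
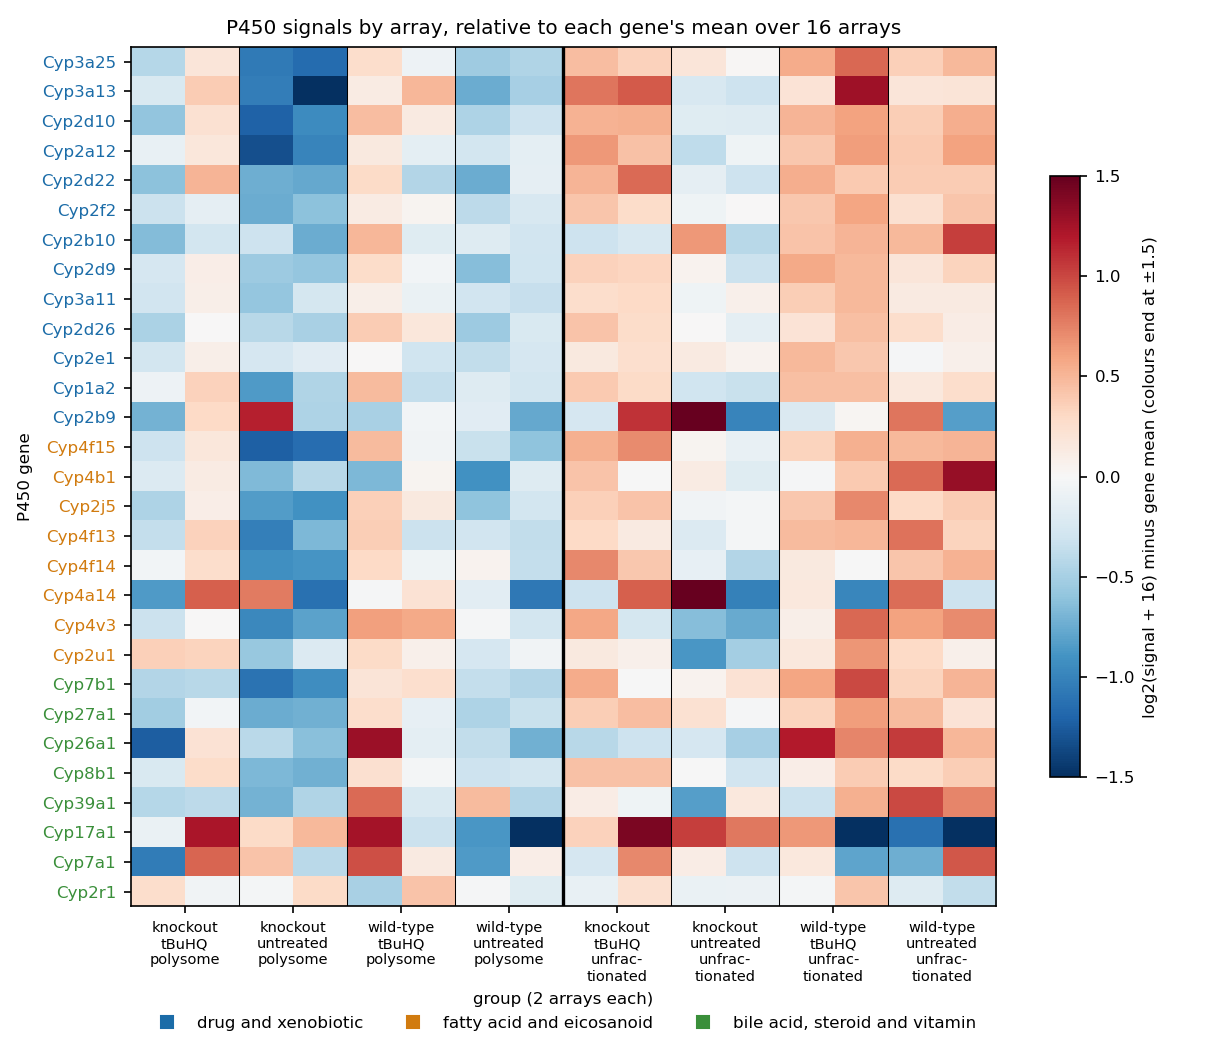
Each of 29 P450 genes (y axis, names coloured by role) on each of 16 arrays (x axis, 2 per group), as log2(signal + 16) minus the gene's mean, with colours ending at ±1.5. The polysome arrays left of the thick line are mostly blue and the unfractionated arrays right of it mostly red, with exceptions. The median over the genes was above 0 on the first wild-type tBuHQ (0.29) and second knockout tBuHQ (0.18) polysome arrays. It was below 0 on both untreated knockout unfractionated arrays (-0.05 and -0.18).

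The fatty acid and eicosanoid group had 5 of 8 tested genes called lower, with a median of -0.50. Cyp4f15, Cyp4f13 and Cyp4f14, omega-hydroxylases that lie together on chromosome 17, had log2 differences of -0.75 ± 0.12, -0.58 ± 0.15 and -0.41 ± 0.12 (adjusted p = 0.00039, 0.00894 and 0.0177). Without the 4 arrays that stood apart Cyp4f15 kept its call, while Cyp4f13 was at -0.33 (adjusted p = 0.196) and Cyp4f14 at -0.23 (adjusted p = 0.309). Cyp2j5, an arachidonic acid epoxygenase, fell by 0.62 ± 0.11 on its brighter probe set (adjusted p = 0.000739), whereas its other probe set gave 0.03 ± 0.18 (adjusted p = 0.939), so that the 2 probe sets disagreed. Cyp4b1, a fatty acid hydroxylase, fell by 0.72 ± 0.16 at mean signals of 44.3 on polysome and 86.7 on unfractionated arrays (adjusted p = 0.00442), and without those 4 arrays it was at -0.47 (adjusted p = 0.118). Cyp4v3 had -0.30 ± 0.14 and Cyp2u1 -0.01 ± 0.13, neither called.

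Cyp4a14, a fatty acid hydroxylase induced through PPAR alpha, had polysome signals of 6.01 and 57.6 in knockout tBuHQ, 51.8 and 2.32 in knockout untreated, 23.3 and 30.2 in wild-type tBuHQ and 19.6 and 2.92 in wild-type untreated liver. In unfractionated RNA it had 15.9 and 57.6 in knockout tBuHQ, 145 and 3.7 in knockout untreated, 28.1 and 4.19 in wild-type tBuHQ and 54.9 and 15.9 in wild-type untreated liver. The fractions overlapped in all 4 combinations, and the log2 difference was -0.33 ± 0.43 (adjusted p = 0.638). The higher Cyp4a14 array had the same number in both fractions in every combination except wild-type tBuHQ liver. Several of these signals lay under 15.1, the highest signal of RNAs absent from the samples.

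Among the genes of bile acid, steroid and vitamin metabolism, 3 of 8 were called lower, with a median of -0.38. Cyp8b1, the sterol 12-alpha-hydroxylase that sets the share of cholic acid, had polysome signals of 2237 and 3194 in knockout tBuHQ, 1644 and 1585 in knockout untreated, 3116 and 2578 in wild-type tBuHQ and 2126 and 2166 in wild-type untreated liver. Its unfractionated signals were 3585 and 3563 in knockout tBuHQ, 2629.6 and 2145 in knockout untreated, 2828 and 3422 in wild-type tBuHQ and 3219 and 3400.0 in wild-type untreated liver. The fractions overlapped only in wild-type tBuHQ liver, and the log2 difference was -0.43 ± 0.11 (adjusted p = 0.00892). The Cyp8b1 call was lost without the 4 arrays that stood apart (-0.32, adjusted p = 0.143) and with quantile normalization over all arrays (-0.27). Cyp7b1, the oxysterol 7-alpha-hydroxylase of the alternative bile acid pathway, fell by 0.81 ± 0.10 (adjusted p = 6.34e-05), and its other probe set past the filter gave -0.79. Cyp27a1, the mitochondrial sterol 27-hydroxylase, fell by 0.67 ± 0.11 (adjusted p = 0.000428).

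Cyp7a1, the rate-limiting enzyme of the classic bile acid pathway, was not called. Its polysome signals were 199 and 799 in knockout tBuHQ, 585 and 321 in knockout untreated, 853 and 473 in wild-type tBuHQ and 231 and 460.3 in wild-type untreated liver. In unfractionated RNA they were 358 and 717 in knockout tBuHQ, 467 and 343 in knockout untreated, 483 and 241 in wild-type tBuHQ and 252 and 834 in wild-type untreated liver. The fractions overlapped in all 4 combinations, and the log2 difference was 0.04 ± 0.31 (adjusted p = 0.939). The other uncalled genes were Cyp26a1, which clears retinoic acid, at -0.50 ± 0.22, Cyp39a1, which hydroxylates 24-hydroxycholesterol, at -0.33 ± 0.21, Cyp17a1, a steroid hydroxylase, at 0.04 ± 0.33 and Cyp2r1, a vitamin D 25-hydroxylase, at 0.06 ± 0.15.

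**Figure D4:**
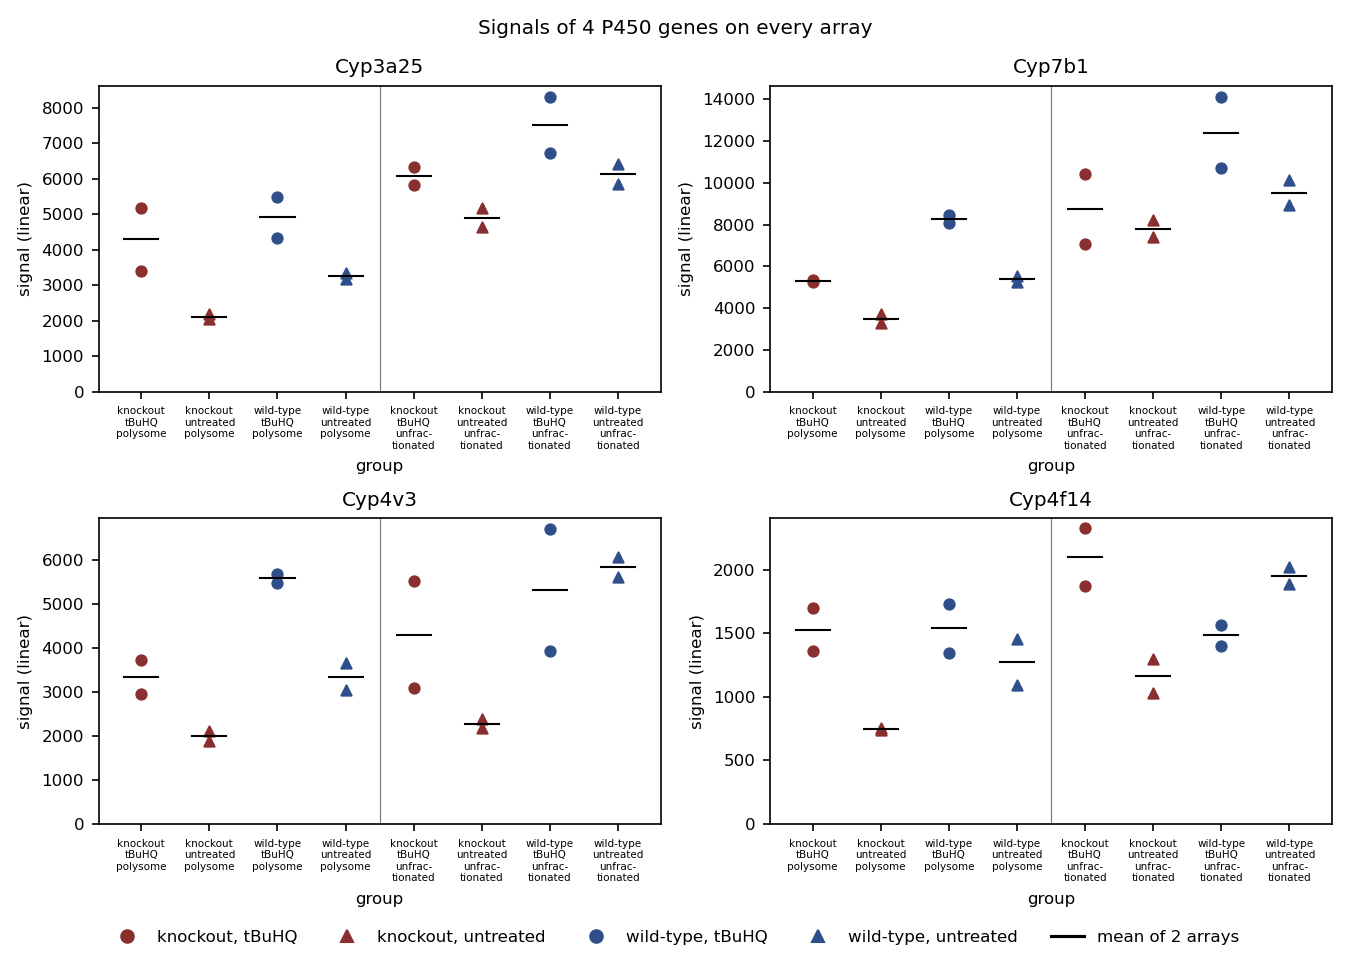
Signals (y axes, linear, from 0) of Cyp3a25, Cyp7b1, Cyp4v3 and Cyp4f14 on every array, by group (x axes, polysome groups left of the grey line). Each point is 1 array and each bar the mean of 2. Cyp3a25 and Cyp7b1 are lower in all 4 polysome groups than in their unfractionated counterparts, Cyp4v3 is lower in each knockout group than in its wild-type counterpart, and Cyp4f14 moves with tBuHQ in opposite directions in unfractionated knockout and wild-type RNA.

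Leaving out the 4 arrays that stood apart lowered the count of called P450 genes to 11, with a median of -0.36, and the 8 calls lost were those of Cyp2b10, Cyp2d9, Cyp2d22, Cyp2d26, Cyp4b1, Cyp4f13, Cyp4f14 and Cyp8b1. The fit without those 4 arrays also drops untreated wild-type liver, because no unfractionated array of it is left. The P450 median there was -0.74, against -0.32 in wild-type tBuHQ, -0.53 in knockout untreated and -0.42 in knockout tBuHQ liver. Its count and median are therefore not like for like with the average over all combinations. Quantile normalization over all arrays left 13 called. The 6 lost were Cyp2e1 at -0.04, Cyp2d26 at -0.05, Cyp3a11 at -0.08, Cyp2d9 at -0.15, Cyp2f2 at -0.22 and Cyp8b1 at -0.27, while Cyp3a25 was at -0.52 and Cyp7b1 at -0.44. The calls of Cyp27a1, Cyp2a12, Cyp2d10, Cyp2j5, Cyp3a13, Cyp3a25, Cyp4f15 and Cyp7b1 held in each of 27 other settings.

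Among partners of the P450s most calls were also lower on polysomes, with 1 higher in each list, where 10.6% of all genes were called lower and 13.2% higher. A lower polysome signal was thus not particular to P450 genes. Of 23 tested genes of other phase I and phase II enzymes, 11 were called lower and 1 higher (median -0.29): Ephx1, the microsomal epoxide hydrolase, had a mean signal of 2060.0 on polysome and 3291 on unfractionated arrays (-0.73 ± 0.12), and Gstz1, a glutathione transferase, was the 1 called higher, at 0.46 ± 0.11. Other bile acid genes had 7 of 12 lower and 1 higher (median -0.31), with Slc10a1, the bile salt importer, at -0.83 ± 0.13. Of 12 heme genes 5 were lower and 1 higher (median -0.40), namely Cpox, an enzyme of heme synthesis, at 0.64 ± 0.15. The 6 electron partners had 3 lower and 1 higher: Cyb5r3, the cytochrome b5 reductase, was at -0.59 ± 0.14 and Cyb5b, the outer mitochondrial cytochrome b5, at 1.33 ± 0.15.

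Regulators of P450 genes lay mostly on the other side, with 11 of 23 called higher on polysomes and 1 lower (median 0.49). Ppara, the fatty acid receptor, had mean signals of 1606 on polysome and 581 on unfractionated arrays (1.59 ± 0.17, limma adjusted p = 1.32e-05), and Nr3c1, the glucocorticoid receptor, 1368 and 486 (1.46 ± 0.14, adjusted p = 6.58e-06). Hnf4a, a hepatocyte transcription factor, was at 0.85 ± 0.14, and the 1 called lower was Nr0b2, the repressor SHP, at -0.67 ± 0.16. Nr1i2 and Nr1i3, which encode PXR and CAR, were at -0.22 ± 0.13 and -0.18 ± 0.12 and were not called. Some regulators also differed within the unfractionated arrays. In wild-type unfractionated RNA Ppara averaged 960 on the untreated arrays, both of which stood apart, and 321 on the tBuHQ arrays. Nr3c1 had 640 and 343, Hnf4a 2570 and 1210, and Nr0b2 2201 and 2235 in the same order. The part of those arrays in the regulator calls was not tested.

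Markers of other cells also differed between fractions. All 7 Kupffer cell markers were called lower on polysomes (median -1.02, summed signal 785 to 1307 on polysome and 1911 to 3454 on unfractionated arrays), as were 4 of 6 stellate cell markers (median -0.59). Hepatocyte markers had 4 of 5 called lower and 1 higher (median -0.30, summed signal 49368 to 66417 on polysome and 64704 to 90848 on unfractionated arrays). Their part in the P450 differences was not tested.

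Between genotypes, averaged over the 4 combinations of treatment and fraction, 1 of 29 P450 genes was called lower and 0 called higher, knockout against wild-type, where 0.112% of all genes were called lower and 0.0299% higher. The median log2 difference, knockout minus wild-type, was -0.25 against -0.01 over all genes, 24 of 29 genes were below 0, and 17 had an unadjusted p under 0.05. Of all 13395 genes 48.6% were above 0 and 1519 had an unadjusted p under 0.05. The median was -0.46 in untreated unfractionated, -0.08 in tBuHQ unfractionated, -0.33 in untreated polysome and -0.19 in tBuHQ polysome RNA. No P450 gene had all 8 knockout arrays below all 8 wild-type arrays, which 0.00747% of all genes did.

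The gene called was Cyp4v3, the mouse counterpart of the human fatty acid hydroxylase CYP4V2. In polysome RNA its signals were 2964 and 3725 in knockout tBuHQ against 5689 and 5481 in wild-type tBuHQ liver, and 1890.4 and 2112 in knockout untreated against 3652 and 3052 in wild-type untreated liver. In unfractionated RNA they were 5529 and 3081 in knockout tBuHQ against 3937 and 6709.8 in wild-type tBuHQ liver, and 2378 and 2183 in knockout untreated against 5609 and 6071 in wild-type untreated liver. Knockout and wild-type arrays did not overlap except in tBuHQ unfractionated RNA, and the log2 difference was -0.79 ± 0.14 (limma adjusted p = 0.0381). The second Cyp4v3 probe set gave the same difference of -0.79. With every probe set tested neither was called (limma adjusted p = 0.149 for the second and 0.0639 for the first). The call was lost in 17 of 26 other settings, with adjusted p of 0.00927 to 0.149 and differences of -0.89 to -0.68. It was lost without the 4 arrays that stood apart, at a difference of -0.75. That fit also drops untreated unfractionated RNA, where the difference was -1.35. The call was also lost with replicate number as a block (adjusted p = 0.0647).

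Other large genotype differences were not called. Cyp7b1 had polysome signals of 5227 and 5327 in knockout tBuHQ against 8095 and 8477 in wild-type tBuHQ liver, and 3277 and 3698 in knockout untreated against 5521 and 5239.5 in wild-type untreated liver. In unfractionated RNA these were 10415 and 7064 in knockout tBuHQ against 10706 and 14088 in wild-type tBuHQ liver, and 7383 and 8219.5 in knockout untreated against 8913 and 10125 in wild-type untreated liver. All 4 comparisons had knockout below wild-type arrays, and the difference was -0.52 ± 0.10 (adjusted p = 0.0741). Its second probe set gave -0.78 ± 0.13.

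Cyp26a1 averaged 158 in knockout and 329.7 in wild-type arrays (-0.88 ± 0.22, adjusted p = 0.183). Cyp17a1 averaged 99.8 in knockout and 40.8 in wild-type arrays (1.37 ± 0.33, adjusted p = 0.16), and its wild-type signals spanned 3.5 to 146. Of the 5 P450 genes above 0 Cyp17a1 was the farthest. Of the lists, regulators had 1 of 23 called, Nr1d2, a clock repressor, higher at 0.78 ± 0.13, and other phase I and phase II enzymes had 2 of 23, the glucuronosyltransferases Ugt2b1 at -0.59 ± 0.10 and Ugt2b34 at -0.67 ± 0.12.

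tBuHQ was set against no treatment in each genotype and fraction, and no P450 gene was called in any of the 4 comparisons. Over all genes, 3.56% were called in wild-type unfractionated (0.358% higher and 3.2% lower), 0% in knockout unfractionated, 0.0149% in wild-type polysome and 0% in knockout polysome RNA. At an unadjusted p under 0.05 the P450 genes numbered 15 in knockout polysome, 13 in wild-type polysome, 12 in knockout unfractionated and 2 in wild-type unfractionated RNA, where all genes numbered 756, 1176, 1085 and 2576 in the same order. The lowest limma adjusted p among the P450 genes was 0.231, 0.383, 0.396 and 0.145 in that order. These tests compare 2 arrays with 2 in each group.

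Medians of the tBuHQ difference over the 29 genes were 0.50 in knockout polysome, 0.40 in wild-type polysome, 0.36 in knockout unfractionated and 0.14 in wild-type unfractionated RNA, against 0.05 or less over all genes in each. In wild-type polysome RNA all 29 were above 0, in knockout polysome and knockout unfractionated RNA 26 of 29 each and in wild-type unfractionated RNA 18 of 29. The wild-type polysome median was 0.71 without the second tBuHQ array, that with the high Gapdh ratio, and the knockout polysome median 0.84 without the first tBuHQ array. Without the second tBuHQ array the wild-type unfractionated median was 0.02, and leaving out any 1 array left the knockout unfractionated median at 0.35 to 0.50. In wild-type unfractionated RNA quantile normalization over all arrays turned the median to -0.12. Cyp3a13 was above 0 throughout, at 1.35 ± 0.32 in knockout polysome, 0.92 ± 0.32 in wild-type polysome, 1.14 ± 0.32 in knockout unfractionated and 0.55 ± 0.32 in wild-type unfractionated RNA. Cyp2a12 was at 1.19 ± 0.21 in knockout polysome RNA, the smallest p of the group there (adjusted p = 0.231), and at 0.02 in wild-type unfractionated RNA.

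**Figure D5:**
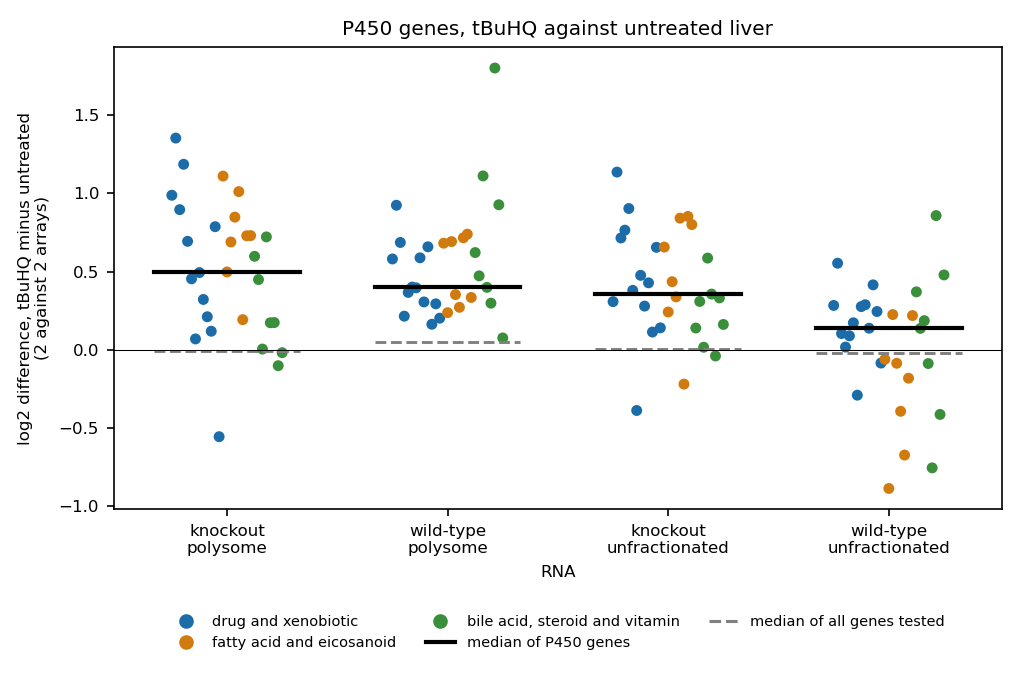
Log2 difference, tBuHQ minus untreated (y axis, 2 arrays against 2), of 29 P450 genes in each genotype and fraction (x axis), coloured by role, with the medians of the P450 genes (black) and of all genes tested (dashed). The medians of the P450 genes are 0.50, 0.40, 0.36 and 0.14 from left to right, and no point passed an adjusted p of 0.05.

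Which arrays had tBuHQ rests on their titles. The authors' deposited table of z scores has 16 columns, and each matched by value the array titled with the opposite treatment and the same genotype and fraction (within 0.00368 on the log10 scale), 4 of them with the other replicate number. If the names in that table were the right ones, every tBuHQ difference here, and every difference of such differences, would turn sign, whereas the averages over conditions between fractions and between genotypes would keep theirs.

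Of 23 regulators, 0 were called with treatment in either fraction of knockout liver, where 0% of all genes were. In wild-type polysome RNA 1 was called higher, where 0.0149% of all genes were. In wild-type unfractionated RNA 3 of 23 were called higher and 3 lower, where 0.358% and 3.2% of all genes were. Dbp, a clock-controlled activator of P450 genes, had a mean signal of 742 in tBuHQ and 53.1 in untreated arrays (3.14 ± 0.75, limma adjusted p = 0.035), and the clock repressors Nr1d1 and Nr1d2 were also higher. Ppara, Rxra and Hnf4a were the 3 called lower, at -1.57 ± 0.34, -2.10 ± 0.42 and -1.08 ± 0.28. The labels give no time of day. Stellate cell markers had 4 of 6 called lower in the same comparison (median -1.27), and this comparison holds both untreated wild-type arrays that stood apart. The part of these in the P450 values was not tested.

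The share of P450 genes whose tBuHQ difference was called different between genotypes was not above that of all genes. In unfractionated RNA 1 of 29 was called, higher in knockout, where 4.73% of all genes were called, 4.33% higher and 0.403% lower, and the median was 0.41 against 0.04 over all genes. That median was 0.26 without the first wild-type tBuHQ and 0.24 without the second untreated knockout unfractionated array. Cyp4f14, an omega-hydroxylase of fatty acids and eicosanoids (promoter above), had unfractionated signals of 2325 and 1871 in knockout tBuHQ against 1294 and 1034 in knockout untreated liver, and of 1563 and 1403 in wild-type tBuHQ against 1884 and 2020.5 in wild-type untreated liver. Both tBuHQ arrays were above both untreated ones in knockout liver and below them in wild-type liver. The tBuHQ difference was 0.84 in knockout and -0.39 in wild-type liver, and the first exceeded the second by 1.24 ± 0.33 (limma adjusted p = 0.0455). It was 1.08 without the first knockout tBuHQ unfractionated array (adjusted p = 0.224), and the call was lost in 15 of 25 other settings. Without the 4 arrays that stood apart it could not be computed, since no untreated wild-type unfractionated array is left. In the same comparison 5 of 6 stellate cell and 3 of 8 sinusoidal endothelial markers were called higher (medians 2.06 and 1.34), 1 of 5 pancreas markers was called lower (median -4.04), and their part in the value was not tested.

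In polysome RNA Cyp4f14 had 1361 and 1697 in knockout tBuHQ against 735 and 756 in knockout untreated liver, and 1733 and 1343 in wild-type tBuHQ against 1456 and 1092 in wild-type untreated liver. Here tBuHQ arrays were above untreated ones in knockout liver and overlapped with them in wild-type liver. No P450 gene was called for the genotype difference in polysome RNA, where 0% of all genes were (median -0.00, 2 of 29 at an unadjusted p under 0.05 and 660 of all genes). The tBuHQ difference on polysomes minus that in unfractionated RNA gave no call either, in wild-type liver (0.134% of all genes called, 0.112% higher and 0.0224% lower, median 0.44, 27 of 29 above 0 and 54.8% of all genes, 3 at an unadjusted p under 0.05 and 2195 of all genes) or in knockout liver (0% of all genes, median 0.14, 20 of 29 above 0 and 48.9% of all genes, 1 at an unadjusted p under 0.05 and 423 of all genes). When any 1 array was left out these medians ran from 0.28 to 0.62 in wild-type liver and from -0.10 (without the second knockout tBuHQ polysome array) to 0.39 (without the first) in knockout liver, and the median of the genotype difference in polysome RNA from -0.17 to 0.21 (without the same 2 arrays).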

How the data were processed

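The values used were the signal intensity of 45101 probe sets on 16 Affymetrix mouse arrays, linear, as deposited by the authors. The authors had scaled each array to a 2%-trimmed mean of 150, as the values show; the summarising software is not stated in the sources used. A further table from the authors, as deposited, holds a z score per array for 18697 probe sets and served only to check array names.

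Gene names came from the annotation of the platform (34958 with 1 gene symbol, 932 with several, 9211 with none; 34754 symbols were updated by Entrez number, using the RefSeq genes of GRCm38.p6), and no gene was named from a probe set with more than 1 symbol. The scale was log2(signal + 16), which understates differences of dim genes. The probe set with the highest mean stood for its gene, and probe sets under the 40th percentile of means (12.3) were left out. Related P450 genes are similar in sequence, so a probe set may also measure a relative.

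The 8 group means were fitted to all 16 arrays with limma 3.58.1 in R 4.3.3 (lmFit, eBayes with an intensity trend, 8 residual and 7.48 prior degrees of freedom). Contrasts were adjusted by Benjamini and Hochberg over 13395 genes, and errors are standard errors of the fit. With RNA of 2 livers pooled per array, the p-values rest on the array-to-array spread. The script was tested on simulated data. Arrays have no sequencing depth and their number limits precision. Arrays of 1 number in both fractions of a condition deviated together with correlations of 0.0667 to 0.281, and those of other pairs of groups with -0.270 to 0.319. Numbers were therefore not used to pair arrays. The labels do not say whether the fractions share livers, and pancreas markers were high on the same first arrays in both fractions. If livers are shared, arrays of a genotype are not all independent, and p-values between genotypes, that of Cyp4v3 included, could be too small.

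The genes and lists were chosen with earlier results of these data known. Every listed gene is accounted for. Values on every array are given for genes called in a difference of differences and for Cyp1a2, Cyp2e1, Cyp2b10, Cyp2f2, Cyp3a11, Cyp4a14, Cyp7a1 and Cyp8b1, and also for Cyp4v3 and Cyp7b1, which were picked after their values were seen. Alternatives were other normalizations, pseudocounts, filters and probe set rules, no intensity trend, a replicate block, and leaving out arrays.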

Additional observations from a re-analysis of the deposited data

Results flagged for a closer look

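Cyp4f14 was flagged because its tBuHQ difference in unfractionated RNA differed between the genotypes by the test of that difference (knockout minus wild-type 1.24 on the log2 scale, limma adjusted p = 0.0455). It was the 1 call among 29 P450 genes, a share not above the 4.73% of all genes called. The call was lost in 15 of 25 other settings. The tBuHQ difference was 0.84 ± 0.23 in knockout and -0.39 ± 0.23 in wild-type liver (SE, 2 arrays against 2).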

How the results depend on the processing

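No P450 difference turned its sign while called. In the polysome comparison 19 genes were called, 17 to 21 when any 1 array was left out, 13 to 21 under the other planned settings, and 11 without the 4 arrays that stood apart, an alternative chosen after seeing the data. For knockout against wild-type the 1 call became 0 with no filter, every probe set tested, no intensity trend, the replicate block, or without those 4 arrays, and 0 to 3 when any 1 array was left out. For the genotype difference of the tBuHQ effect in unfractionated RNA the 1 call became 0 with quantile normalization over all arrays, no filter, every probe set tested or no intensity trend, and 0 to 2 when any 1 array was left out. The other 7 comparisons stayed at 0 under each setting run. With replicate number as a block the polysome comparison kept a count of 19 (21 with a block within each condition) and the genotype difference of tBuHQ a count of 1; the numbers mark no stated pairing. The cause of these changes was not tested, except that every probe set and no filter adjust over more tests. Leaving out those 4 arrays also drops a combination from the averages between fractions and between genotypes. With 2 arrays per group, and with dim genes such as Cyp2b9, Cyp4a14 and Cyp17a1 near background, small differences could not be detected.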
